A study of Mus musculus with 6 samples.

Results

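The transcripts of 8 glycolytic enzymes, Gpi1, Aldoa, Tpi1, Gapdh, Pgk1, Pgam1, Eno1 and Ldha, were followed in cells dissociated from mouse spinal cord and sequenced by Drop-seq, in which single cells are caught in droplets with barcoded beads and each captured RNA molecule carries a unique molecular identifier (UMI). They were taken by name, with earlier results of these data known, as 8 of the 17042 genes shared by the 6 tables. The 3 groups of 2 libraries each were WT-Veh (wild-type mice given vehicle), SOD1-Veh (SOD1-G93A mice given vehicle) and SOD1-Nec (SOD1-G93A mice given Necrostatin-1s). SOD1-G93A mice carry a mutant human superoxide dismutase gene and are a model of amyotrophic lateral sclerosis. Necrostatin-1s is an inhibitor of the kinase RIPK1. The labels give no age, sex, dose or transgene promoter, and they do not say that the 2 libraries of a group came from separate animals, so every p-value below measures only the spread between these libraries. Levels were read in barcodes that held 200 genes or more and had no more than 20% mitochondrial UMIs. They are given as CPM, the UMIs of a gene scaled to a fixed total for its library or class; TMM-scaled CPM also carry a factor that balances library composition.

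Glycolysis splits glucose into pyruvate in the cytosol and yields ATP without oxygen. Gpi1 turns glucose 6-phosphate into fructose 6-phosphate, Aldoa cleaves the doubly phosphorylated sugar, Tpi1 interconverts the resulting trioses, Gapdh oxidises glyceraldehyde 3-phosphate, Pgk1 makes ATP, Pgam1 and Eno1 lead on to phosphoenolpyruvate, and Ldha converts pyruvate to lactate. Several steps have tissue isozymes: skeletal muscle uses Aldoa with Eno3, Pgam2 and Pfkm, astrocytes use Aldoc, and neurons use Eno2. In the spinal cord glycolysis serves microglia and astrocytes as well as neurons, and most of these enzymes are made by every cell type.

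Of 21919 barcodes, 3360 were retained, 399 to 794 per library, with 437624 to 652881 UMIs per library and a median of 526 to 727 UMIs per barcode. The mitochondrial limit removed 40.9% and 33.3% of the barcodes with enough genes in SOD1-Veh 1 and 2, 31.3% and 31.6% in the WT-Veh and 25.1% and 19.1% in the SOD1-Nec libraries. The groups do not overlap in this share, and its part in the differences below was not tested. A single retained barcode sequence occurred in more than 1 library. Both SOD1-Veh libraries stood apart by skeletal muscle transcripts. Barcodes with at least 3 UMIs over Acta1, Myl1, Tnnc2 and Ckm, genes of the muscle contractile apparatus and of creatine kinase, numbered 17 in SOD1-Veh 1 and 55 in SOD1-Veh 2 and held 4.56% and 13.7% of the UMIs. These 4 genes had 0 UMIs in the retained barcodes of every WT-Veh and SOD1-Nec library. All 10 skeletal muscle markers were detected in SOD1-Veh, with a summed level of 10966 and 21898 CPM, against 4 of 10 markers at 21.3 to 23.5 in WT-Veh and 4 to 5 of 10 at 32.2 to 48.8 in SOD1-Nec. The 72 are called muscle barcodes here, and each group comparison is given with and without them. WT-Veh 2 also stood apart, with 164 of the 254 barcodes of the neuron-like class.

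Over all retained barcodes, Aldoa was the member that differed between groups: it was 6.80-fold higher in SOD1-Veh than in WT-Veh and 7.64-fold lower in SOD1-Nec relative to that group. Gapdh and Ldha had the next largest differences in the same directions and did not pass edgeR's test in either contrast. Of the 7 members with enough UMIs to test, 1 was called higher in SOD1-Veh than in WT-Veh, where 0.684% of 7457 genes were called (4 of 7 at an unadjusted p under 0.05, and 2 by DESeq2). In SOD1-Nec against SOD1-Veh, 1 of 7 was called lower, with 0.483% of genes called (5 at an unadjusted p under 0.05, and 3 by DESeq2), and 0 of 7 were called in SOD1-Nec against WT-Veh, with 0.0402% called (0 of 7 also at an unadjusted p under 0.05, and 0 by DESeq2). The median log2 fold change of the 7 was 0.86, -0.84 and -0.14 in these contrasts, and that of all genes tested was -0.02, 0.0049 and -0.02. The contrasts share libraries and are not independent of each other. In sums over a library, fewer cells of a type and less RNA per cell cannot be told apart.

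**Figure D1:**
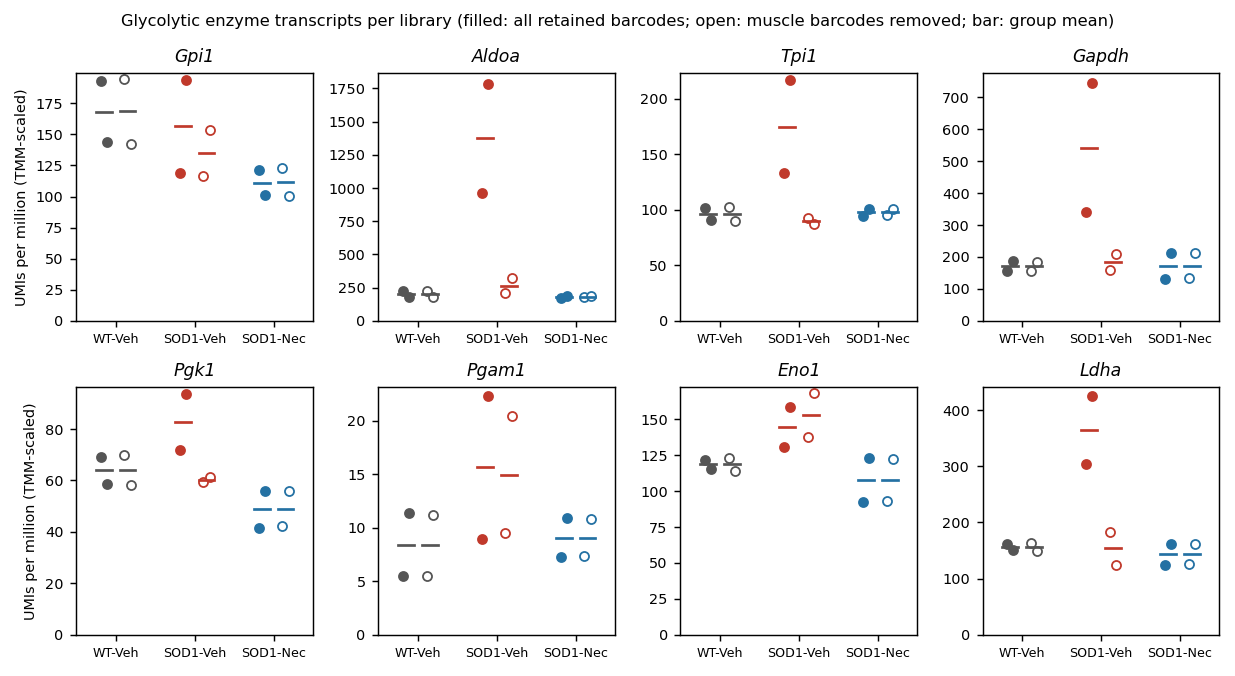
Level of each enzyme in every library, in CPM after TMM scaling (vertical axes start at 0 and differ between panels), by group on the horizontal axis. Filled points are all retained barcodes, open points leave out muscle barcodes and bars are group means of 2 libraries. For Aldoa the filled SOD1-Veh points lie at 963 and 1784 and the open ones at 209 and 319.

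The upper pathway opens with Gpi1, which had 193 and 144 TMM-scaled CPM for the WT-Veh pair of libraries, 119 and 194 for the SOD1-Veh pair and 121 and 101 for the SOD1-Nec pair. The WT-Veh and SOD1-Veh libraries overlapped. The log2 difference between SOD1-Veh and WT-Veh was -0.10 ± 0.32 (SE, adjusted p = 0.945 by edgeR's quasi-likelihood test).

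Aldoa, the aldolase of muscle and of most other tissues, had 226 and 178 TMM-scaled CPM for the WT-Veh pair of libraries, 963 and 1784 for the SOD1-Veh pair and 174 and 185 for the SOD1-Nec pair. Both SOD1-Veh libraries lay above all 4 others, and the WT-Veh and SOD1-Nec libraries overlapped. The means were 1373 ± 581 in SOD1-Veh and 202 ± 34.0 in WT-Veh (SD, n = 2 each), a log2 difference of 2.77 ± 0.34 (SE, adjusted p = 0.000684, edgeR). From SOD1-Veh to SOD1-Nec the log2 change was -2.93 ± 0.34 (adjusted p = 0.00042, edgeR), against a SOD1-Nec mean of 179 ± 7.91.

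Tpi1, triose phosphate isomerase, had 102 and 90.8 TMM-scaled CPM for the WT-Veh pair of libraries, 133 and 216 for the SOD1-Veh pair and 94.1 and 101 for the SOD1-Nec pair. Here too the SOD1-Veh libraries were the highest, by a log2 difference of 0.86 ± 0.32 over WT-Veh (adjusted p = 0.357, edgeR) and with a change of -0.84 ± 0.31 to SOD1-Nec (adjusted p = 0.579).

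In the lower pathway, Gapdh had 155 and 187 TMM-scaled CPM for the WT-Veh pair of libraries, 340 and 745 for the SOD1-Veh pair and 132 and 213 for the SOD1-Nec pair. SOD1-Veh lay above both other groups, and these overlapped each other. The log2 difference from WT-Veh was 1.66 ± 0.38 (adjusted p = 0.0826, edgeR) and the change to SOD1-Nec was -1.65 ± 0.38 (adjusted p = 0.107). Both missed the threshold of 0.05. Gapdh passed it, with adjusted p = 0.00517 and 0.00954, by DESeq2, and without SOD1-Veh 1 in edgeR, with 0.0207 and 0.0227.

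Pgk1, the first ATP-yielding step, had 69.2 and 58.6 TMM-scaled CPM for the WT-Veh pair of libraries, 72.0 and 93.7 for the SOD1-Veh pair and 41.6 and 56.0 for the SOD1-Nec pair. The order of the groups was SOD1-Veh, WT-Veh, SOD1-Nec without overlap. The log2 differences were 0.37 ± 0.34 (adjusted p = 0.764, edgeR) for SOD1-Veh against WT-Veh and -0.75 ± 0.34 (adjusted p = 0.715) for SOD1-Nec against SOD1-Veh.

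Pgam1, a phosphoglycerate mutase, was close to the limit of detection, with 3 and 6 UMIs for the WT-Veh pair of libraries, 4 and 10 for the SOD1-Veh pair and 4 and 7 for the SOD1-Nec pair. It did not reach the expression filter and was not tested in the main edgeR fit. DESeq2 and edgeR without that filter did not call it, so no difference was detectable at this depth. Mouse Gapdh, Pgam1 and Eno1 have near-identical copies elsewhere in the genome. How reads shared with such copies were counted is not given in the sources used here, so their levels are uncertain to that extent.

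Eno1, the enolase of most non-neuronal, non-muscle cells, had 122 and 115 TMM-scaled CPM for the WT-Veh pair of libraries, 130 and 158 for the SOD1-Veh pair and 92.3 and 123 for the SOD1-Nec pair. The SOD1-Veh libraries were again the highest, but by only 0.28 ± 0.30 over WT-Veh on the log2 scale (adjusted p = 0.795, edgeR).

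Ldha, the lactate dehydrogenase subunit that predominates in fast muscle, had 162 and 151 TMM-scaled CPM for the WT-Veh pair of libraries, 304 and 426 for the SOD1-Veh pair and 125 and 162 for the SOD1-Nec pair. SOD1-Veh lay above both other groups, by a log2 difference of 1.22 ± 0.30 over WT-Veh (adjusted p = 0.107, edgeR), with a change of -1.34 ± 0.30 to SOD1-Nec (adjusted p = 0.0856). The second of these passed by DESeq2 (adjusted p = 0.0298) and without WT-Veh 2 (adjusted p = 0.0493, edgeR).

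Across the 7 tested members, 6 had both SOD1-Veh libraries above both WT-Veh libraries, the exception being Gpi1, and 18.9% of all genes tested did so. Against SOD1-Nec the same number, 6 of 7, had both SOD1-Veh libraries higher, beside 19.6% of all genes. The members were chosen with earlier results of these data known, so these shares are a description and not a test.

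The retained UMIs of these enzymes in SOD1-Veh were spread unevenly between muscle barcodes and the rest. Muscle barcodes held 82.7% of the SOD1-Veh Aldoa UMIs (1015 of 1228; exact binomial 95% interval 80.4% to 84.7%), 69.3% of Gapdh, 61.3% of Ldha and 53.2% of Tpi1, against 9.31% of the UMIs of all genes. The share was 33.8% for Pgk1 (23.2% to 45.7%) and 22.1% for Gpi1 (15.6% to 29.9%). The 2 libraries differed in these shares, as they did over all genes (4.56% and 13.7%). In SOD1-Veh 1 and 2 the share was 79.4% and 84.4% for Aldoa, 55.6% and 75.4% for Gapdh, 43.0% and 74.3% for Ldha, and 33.9% and 64.9% for Tpi1. It was 21.9% and 42.9% for Pgk1. For Gpi1 it was 7.55% in SOD1-Veh 1, with an interval of 2.09% to 18.2% that includes the 4.56% of all genes, and 31.0% in SOD1-Veh 2. It was 14.3% for Pgam1, where 2 of 14 UMIs give an interval of 1.78% to 42.8%. Eno1 was the exception, with 5 of 129 UMIs or 3.88% (1.27% to 8.81%), below the share of all genes. Within SOD1-Veh 2 alone its interval, 2.33% to 15.7%, included the 13.7% of all genes, and so did that of SOD1-Veh 1, 0% to 6.16%, with 4.56%. These intervals, and those that follow, cover counting error only.

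**Figure D2:**
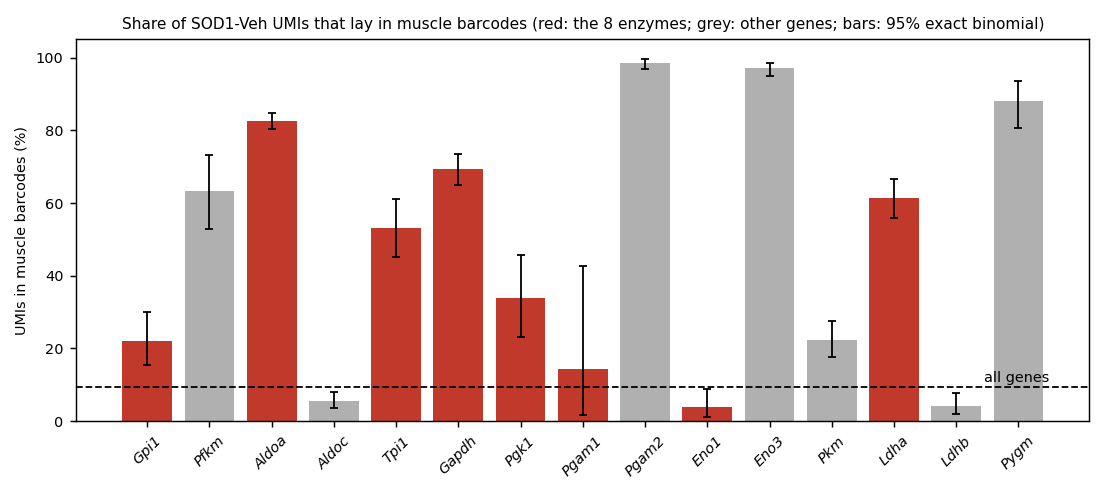
Percentage of the SOD1-Veh UMIs of each gene that lay in the 72 muscle barcodes (vertical axis), both libraries pooled, genes in pathway order on the horizontal axis. Red bars are the 8 enzymes, grey bars are isozymes and the glycogen phosphorylase Pygm, error bars are exact binomial 95% intervals and the dashed line is the share over all genes, 9.31%. Aldoa stands at 82.7%, Eno1 at 3.88%, and the muscle isozymes Eno3 and Pgam2 at 97.1% and 98.6%.

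Within the muscle barcodes Aldoa reached 17045 CPM in SOD1-Veh 1 (340 UMIs, exact Poisson 95% interval 15281 to 18957) and 10459 in SOD1-Veh 2 (675 UMIs, 9684 to 11278). In the other retained barcodes of the same libraries it stood at 211 (169 to 260) and 309 (257 to 368), next to 220 and 184 in WT-Veh and 180 and 182 in SOD1-Nec. At least 1 Aldoa UMI was found in 16 of 17 and 51 of 55 muscle barcodes, with a median of 13 and 8 UMIs, and in 17.3% and 22.5% of the other retained barcodes. The median depth was similar, at 850 and 697 UMIs in muscle barcodes and 724 and 700 in the others.

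Gapdh had 4211 and 3905 CPM in the muscle barcodes of SOD1-Veh 1 and 2, and 160 and 202 in the other barcodes. Ldha had 2908 and 2200, against 184 and 121 in the others. Both enzymes were thus far above the rest of their own library in each of the 2 libraries.

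Tpi1 had 1003 and 976 CPM in muscle barcodes, against 93.4 and 83.9 in the others, and Pgk1 had 351 and 279, against 59.9 and 59.2. Gpi1 stood at 201 (4 UMIs, interval 54.6 to 513) and 418 (27 UMIs, 276 to 609), against 117 and 148, so that the interval of the first library includes the level of its other barcodes. Eno1 had 0 of 19947 muscle-barcode UMIs in SOD1-Veh 1, which allows up to 185 CPM by the exact interval, and 77.5 in SOD1-Veh 2 (5 UMIs), against 139 and 163 in the other barcodes. In the muscle barcodes the second enolase, the muscle gene Eno3, had 5765 and 3951 CPM, and the muscle phosphoglycerate mutase Pgam2 had 6267 and 3548.

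Aldoa was high only in barcodes with 5 or more muscle UMIs. In SOD1-Veh barcodes with 0 muscle UMIs Aldoa stood at 256 CPM (676 barcodes), with 1 at 323 (74 barcodes), and with 2 at 148 (14 barcodes). Just inside the limit, the 3 barcodes with 3 muscle UMIs stood at 337, the 6 with 5 to 19 at 3495 and the 63 with 20 or more at 14873. Gapdh stood at 674 in the 3 barcodes just inside the limit (10 UMIs, interval 323 to 1240) and at 346 in those with 2 muscle UMIs (189 to 580), and Ldha at 472 (7 UMIs, 190 to 973) and 124 (40.1 to 288). Eno1 went from 150 at 0 muscle UMIs to 14.8 (1 UMI) at 20 or more. Of the 72 muscle barcodes, 68 fell into a cluster led by Myl1, Acta1, Tnnc2 and Tnnt3 and 4 into other clusters. No glycolytic gene was among the genes used for clustering. The genes that chose the muscle barcodes were not kept out of it, so this overlap is not independent of that choice.

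**Figure D3:**
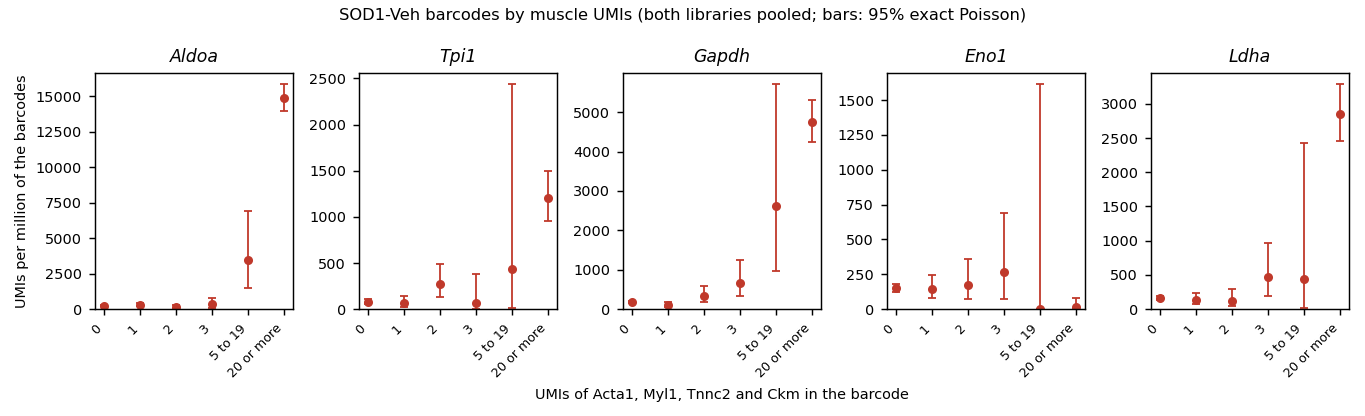
CPM of 5 of the enzymes (vertical axes, different scales) in SOD1-Veh barcodes sorted by the number of UMIs over Acta1, Myl1, Tnnc2 and Ckm (horizontal axis), both libraries pooled. Bars are exact Poisson 95% intervals. Aldoa goes from 256 at 0 muscle UMIs to 14873 at 20 or more, and Eno1 from 150 to 14.8.

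Since Aldoa and the muscle isozymes were high in the same barcodes, the DNA before start sites of Aldoa and of Pgam2 is shown as RefSeq places them on GRCm38.p6. All 3 sequences are on the minus strand and run 5′ to 3′ over the 250 bases before a start site. Capitals mark matches to the MEF2 motif, which MEF2 factors of muscle bind, and to the E-box CANNTG, which muscle regulators of the MyoD family and many others bind. Both strands were searched, matches may overlap, and the counts below are over windows that also hold the 50 bases after the start site.

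Aldoa, first start, chr7:126800448-126800697: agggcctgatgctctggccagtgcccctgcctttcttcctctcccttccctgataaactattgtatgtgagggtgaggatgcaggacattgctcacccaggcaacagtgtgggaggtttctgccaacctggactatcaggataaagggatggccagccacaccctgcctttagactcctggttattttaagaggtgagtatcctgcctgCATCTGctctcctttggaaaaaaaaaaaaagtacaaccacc
Aldoa, second start, chr7:126799255-126799504: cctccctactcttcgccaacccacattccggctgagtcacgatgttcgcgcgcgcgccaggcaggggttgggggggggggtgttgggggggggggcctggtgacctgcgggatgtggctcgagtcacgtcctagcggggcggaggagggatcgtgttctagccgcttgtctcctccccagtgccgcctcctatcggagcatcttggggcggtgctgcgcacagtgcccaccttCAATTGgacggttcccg
Pgam2, chr11:5803797-5804046: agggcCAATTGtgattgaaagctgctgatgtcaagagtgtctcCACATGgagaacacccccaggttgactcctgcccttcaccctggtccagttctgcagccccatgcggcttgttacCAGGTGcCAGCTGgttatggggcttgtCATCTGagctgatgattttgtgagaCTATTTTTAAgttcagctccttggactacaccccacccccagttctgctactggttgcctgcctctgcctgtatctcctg

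Pgam2 had 1 MEF2 match and 5 E-box matches, and each Aldoa window shown had 0 and 1. Among windows not shown, the third of Aldoa had 0 and 2, that of Eno3 0 and 2, and that of Pygm 0 and 3. A MEF2 match lay in 3.19% and an E-box in 72.3% of the 32851 windows of this length. No window of the other 7 members, of Eno3 or of Pygm held a MEF2 match. The hypoxia factor's core letters ACGTG had 5 matches in the first Ldha window and 0 in the second, 2 in that of Pgk1, 1 each in 2 of the 3 Aldoa windows, Gapdh and Pgam1, and 0 in those of Gpi1, Tpi1 and Eno1. GCGTG had 2 matches in each window of Gapdh, Pgam1, Eno1 and Ldha and 0 in those of the other members. ACGTG lay in 19.6%, GCGTG in 32.4% and either in 43.8% of all windows. These are letter matches only. Drop-seq counts the 3′ ends of transcripts, so the counts do not tell which start site was used.

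With muscle barcodes removed, 0 of the 7 tested members were called in any of the 3 contrasts. In SOD1-Veh against WT-Veh 0.0802% of 7481 genes were called, in SOD1-Nec against SOD1-Veh 0% (edgeR; 483 genes at an unadjusted p under 0.05 and 17 genes by DESeq2), and in SOD1-Nec against WT-Veh 0.0802%. Among the members 0 had an unadjusted p under 0.05 in these contrasts, and DESeq2 called 0. The members' median log2 fold change was -0.02, -0.27 and -0.13, and that of all genes tested was 0.0030, -0.0076 and -0.02. Removal left some muscle RNA: the summed muscle markers still stood at 139 and 365 CPM in SOD1-Veh 1 and 2, and the part of that RNA in the values below was not tested.

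Aldoa then had 228 and 176 TMM-scaled CPM for the WT-Veh pair of libraries, 209 and 319 for the SOD1-Veh pair and 176 and 184 for the SOD1-Nec pair. SOD1-Veh overlapped WT-Veh and lay above SOD1-Nec. The log2 difference from WT-Veh was 0.38 ± 0.30 (adjusted p = 0.772, edgeR), and the change to SOD1-Nec was -0.55 ± 0.30 (adjusted p = 0.811). Leaving out SOD1-Veh 2 made the first difference 0.046, leaving out SOD1-Veh 1 made it 0.68, and the other 2 left-out libraries of this pair of groups gave 0.21 (WT-Veh 2) and 0.62 (WT-Veh 1). It was 0.0022 in barcodes with 400 genes or more, and the second was -0.20 without SOD1-Veh 2.

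Eno1, which hardly lost UMIs by the removal, had 123 and 114 for the WT-Veh pair of libraries, 138 and 169 for the SOD1-Veh pair and 93.4 and 122 for the SOD1-Nec pair. It was the only tested member with both SOD1-Veh libraries above both WT-Veh libraries, 1 of 7 beside 18.5% of all genes, and the log2 difference was 0.37 ± 0.30 (adjusted p = 0.781, edgeR). Aldoa, Pgk1 and Eno1 had both SOD1-Veh libraries above both SOD1-Nec libraries, 3 of 7 beside 19.7% of all genes.

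Gapdh, at 1.66 before the removal, differed between SOD1-Veh and WT-Veh by 0.11 ± 0.32 on the log2 scale (adjusted p = 0.953, edgeR) and Ldha by -0.02 ± 0.31 (0.989). Tpi1 gave -0.10 ± 0.31 (0.953), Pgk1 -0.08 ± 0.35 (0.968) and Gpi1 -0.32 ± 0.31 (0.807). In SOD1-Nec against SOD1-Veh the same 5 lay between -0.29 and 0.13. Small differences would be missed here: after adjustment over all genes the procedure recovered 16% of simulated 2-fold changes and 78% of 4-fold changes in these sums.

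**Figure D4:**
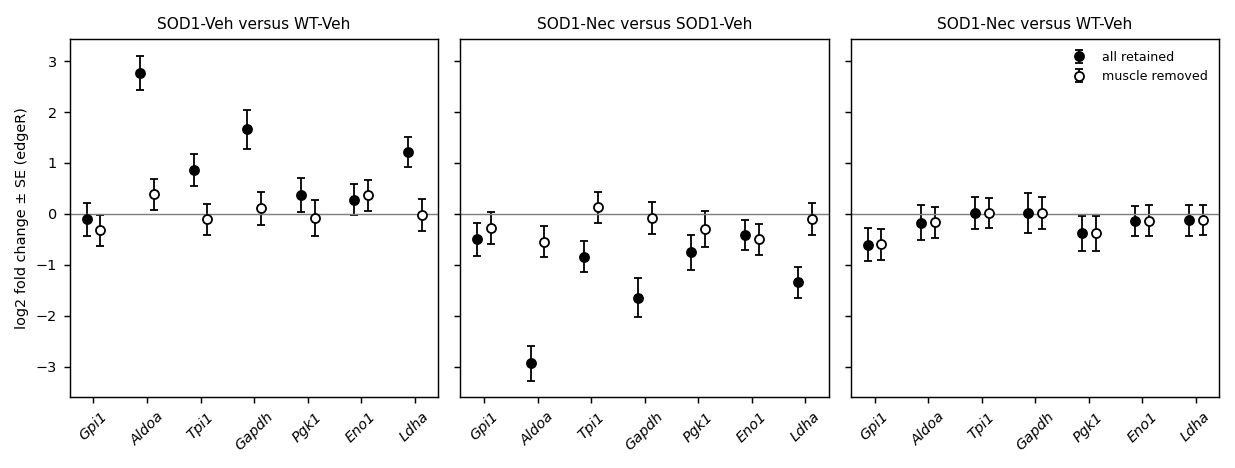
Log2 fold change with its SE (vertical axis) of the 7 tested enzymes (horizontal axis) in the 3 contrasts, from edgeR over 2 libraries per group. Filled points are all retained barcodes and open points leave out muscle barcodes. Aldoa moves from 2.77 to 0.38 in SOD1-Veh against WT-Veh, and no open point passed the test.

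Among the other glycolytic enzymes, 16 of the 21 listed were in the tables and 12 were tested over all retained barcodes. Of these, 2 rose in SOD1-Veh against WT-Veh and the same 2 fell in SOD1-Nec against SOD1-Veh, Eno3 and Pgam2. The median log2 fold change of the 12 was 0.21 and -0.38. Eno3 had 3.64 and 5.67 TMM-scaled CPM for the WT-Veh pair of libraries, 263 and 589 for the SOD1-Veh pair and 5.43 and 4.66 for the SOD1-Nec pair. Its log2 difference was 6.45 ± 0.55 (adjusted p = 1.78e-05, edgeR) against WT-Veh and the change to SOD1-Nec was -6.34 ± 0.53 (1.77e-05). Pgam2 had 0 UMIs in all 4 WT-Veh and SOD1-Nec libraries and 125 and 234 in SOD1-Veh, which makes it at least 144-fold higher than in WT-Veh and at least 160-fold higher than in SOD1-Nec, against a floor of 3 UMIs over each group (adjusted p = 3.05e-05 and 2.7e-05, edgeR).

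Of the 8 glycogen genes, 6 were tested and 1 fell from SOD1-Veh to SOD1-Nec. That gene was Pygm, the muscle glycogen phosphorylase, with a log2 change of -3.37 ± 0.54 (adjusted p = 0.00763, edgeR); against WT-Veh it stood at 1.92 ± 0.48 (0.119). The call was lost without SOD1-Veh 2 (adjusted p = 0.184, edgeR), SOD1-Nec 1 (0.106) or SOD1-Nec 2 (0.136). Muscle barcodes held 97.1% of the Eno3 UMIs of SOD1-Veh, 98.6% of Pgam2 and 88.2% of Pygm. With muscle barcodes removed, 0 genes of these lists were called by edgeR or DESeq2, and 2 of 10 other glycolytic enzymes and 1 of 7 glycogen genes had an unadjusted p under 0.05 in SOD1-Veh against WT-Veh.

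The remaining lists gave 0 calls in every contrast over all retained barcodes, by edgeR and by DESeq2: 9 regulators of glycolysis tested, 7 transporters of glucose, lactate and pyruvate, 7 enzymes of the pentose phosphate pathway and 11 genes of the hypoxia response. In SOD1-Veh against WT-Veh an unadjusted p under 0.05 was found for 1, 1, 1 and 3 of them. Their median log2 fold changes in SOD1-Veh against WT-Veh were -0.07, 0.20, -0.01 and -0.17. Isozymes of other tissues did not pass the test either. The astrocyte aldolase Aldoc stood at -0.35 ± 0.28 (adjusted p = 0.724, edgeR) in SOD1-Veh against WT-Veh, Ldhb at 0.15 ± 0.28 (0.904), Pkm, pyruvate kinase, at 0.59 ± 0.30 (0.527), and Pfkm, the muscle phosphofructokinase, at 1.00 ± 0.40 (0.395). Muscle barcodes held 63.4% of the SOD1-Veh UMIs of Pfkm, 22.3% of Pkm, 5.57% of Aldoc and 4.17% of Ldhb. Neuronal Eno2 gave -2.54 ± 0.68 (0.154), with 38 of its 50 WT-Veh UMIs in WT-Veh 2, the library with the 164 neuron-like barcodes.

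Across cell classes, the order of the mean levels was not the same for every enzyme, and no step between neighbouring classes passed the test given below. Clusters were named from marker genes, and 5 classes had at least 20 barcodes in every library after muscle barcodes were removed: microglia-like (649 barcodes), erythroid-like (507), B cell-like (469), neutrophil-like (409) and monocyte-like (294). The leading genes of 1 of the 2 microglia-like clusters were the basophil genes Prss34 and Mcpt8, followed by Siglech, Spp1 and C1qb. Levels below are means over the 6 libraries with their SD.

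**Figure D5:**
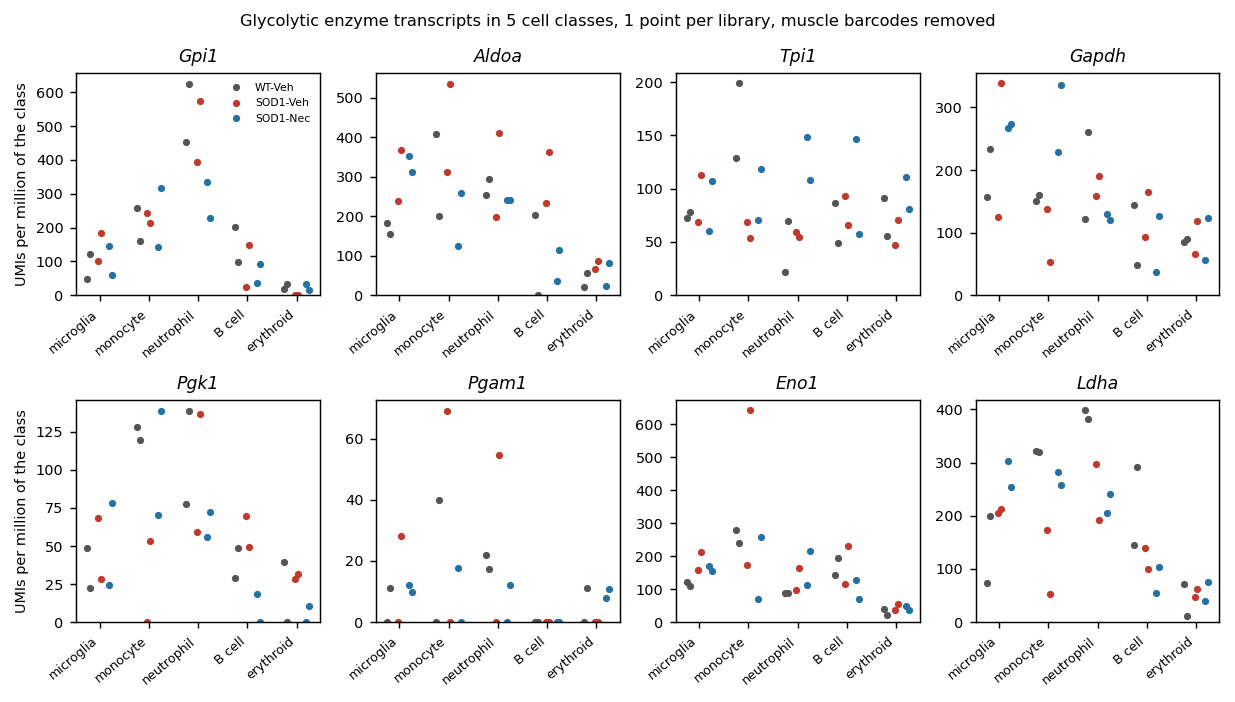
CPM of each enzyme (vertical axes start at 0 and differ between panels) in 5 cell classes (horizontal axis), 1 point per library, coloured by group, muscle barcodes removed. Gpi1 is highest in the neutrophil-like class, from 229 to 625, and lowest in the erythroid-like class, from 0 to 33.4.

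Gpi1 had 435 ± 148 CPM in neutrophil-like barcodes, 222 ± 64.9 in monocyte-like, 110 ± 51.7 in microglia-like, 100 ± 67.4 in B cell-like and 16.8 ± 14.6 in erythroid-like ones. Neutrophil-like lay above monocyte-like in 5 of 6 libraries and B cell-like above erythroid-like in 6 of 6. Within the neutrophil-like class the cluster led by the granule genes Camp, Ngp and Ltf stood at 456 ± 168 and the one led by Retnlg and Cxcr2 at 352 ± 179.

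Aldoa was nearly level across myeloid classes, with 306 ± 148 in monocyte-like, 273 ± 73.7 in neutrophil-like and 268 ± 89.3 in microglia-like barcodes. It stood at 158 ± 135 in B cell-like and 55.5 ± 28.4 in erythroid-like ones. Gapdh had 233 ± 79.3 in microglia-like, 178 ± 96.0 in monocyte-like, 164 ± 54.6 in neutrophil-like, 102 ± 52.1 in B cell-like and 89.7 ± 27.3 in erythroid-like barcodes.

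Tpi1 went from 107 ± 54.4 in monocyte-like to 76.3 ± 23.5 in erythroid-like barcodes. Pgk1 went from 90.0 ± 37.8 in neutrophil-like to 18.3 ± 17.0 in erythroid-like barcodes, and Pgam1 from 21.1 ± 28.3 in monocyte-like to 0 in B cell-like ones, where none of the 6 libraries had a UMI.

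Among these 5 classes Eno1 was highest in monocyte-like barcodes at 277 ± 194, a mean that 1 library with 642 raised, ahead of 155 ± 36.3 in microglia-like, 147 ± 57.8 in B cell-like, 128 ± 52.1 in neutrophil-like and between 22.3 and 55.2 over the 6 libraries in erythroid-like ones. Ldha had 286 ± 88.8 in neutrophil-like, 235 ± 104 in monocyte-like, 208 ± 76.9 in microglia-like, 139 ± 81.8 in B cell-like and 51.5 ± 24.1 in erythroid-like barcodes. For 7 of the 8 enzymes the erythroid-like class was the lowest of the 5. CPM here are shares of all UMIs of a class, so abundant haemoglobin transcripts can lower every other gene in that class. In WT-Veh 1, for example, the erythroid markers held 95342 UMIs over the library, and the erythroid-like class held 152893 UMIs of all genes. How many of all genes were lowest in this class was not counted, and the part of composition was not tested.

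None of the 32 pairs of neighbouring classes passed the threshold after adjustment over all 32 (two-sided exact sign-flip permutation test on log2(CPM + 10) within libraries). With 6 libraries a pair could pass only if many pairs reached the smallest possible p together. The lack of calls therefore does not show that neighbouring classes were alike. The smallest p that 6 libraries allow, 0.0312, gave an adjusted p of 0.333 and was reached by 3 pairs, each in 6 of 6 libraries. These were Gpi1 and Ldha between B cell-like and erythroid-like (2.00 and 1.25 on that scale) and Eno1 between neutrophil-like and erythroid-like (1.42). All 3 involve the erythroid-like class, where the limit on CPM given above applies.

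Part of a class level can be RNA free in the suspension. In barcodes with under 100 genes, Aldoa stood at 137 and 87.1 CPM for the WT-Veh pair of libraries, 202 and 263 for the SOD1-Veh pair and 67.6 and 48.1 for the SOD1-Nec pair. The first 5 of these values lie above its erythroid-like mean and the last below it, and both SOD1-Veh values lie above its B cell-like mean of 158. All 6 lie below its means in the 3 myeloid classes, but the 202 of SOD1-Veh 1 lies above the 198 of neutrophil-like barcodes in that library. Ldha stood there at 25.1 and 46.3, 43.2 and 41.2, and 25.8 and 14.2 in the same order of libraries. The astrocyte aldolase Aldoc had means of 355 to 488 CPM in these 5 classes, against 6959 in astrocyte-like barcodes. How much of a class level was free RNA was not tested.

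Smaller classes were read from pooled UMIs, with counting intervals. Astrocyte-like barcodes (122) had 530 CPM of Eno1 (38 UMIs, interval 375 to 727), 335 of Tpi1 and 404 of Aldoa, beside 6959 of the isozyme Aldoc. Oligodendrocyte-like barcodes (210) had 366 of Aldoa (296 to 447) and 23.1 of Ldha (6 UMIs, 8.48 to 50.3). Neuron-like barcodes (254) had 97.2 of Aldoa, 37.4 of Ldha and 22.4 of Eno1 (3 UMIs), beside 254 of Eno2, and 164 of these barcodes came from WT-Veh 2. Myeloid progenitor-like barcodes (37) had 535 of Gapdh (378 to 734). Other steps of the pathway were split by class as well: the hexokinase Hk2 had 336 ± 85.1 CPM in microglia-like and 0 in B cell-like barcodes, Ldhb had 420 ± 123 in microglia-like barcodes, and Bpgm, which makes the haemoglobin ligand 2,3-bisphosphoglycerate, had 717 ± 342 in erythroid-like ones.

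Inside single classes 0 members were called in any contrast by edgeR or by DESeq2. An unadjusted p under 0.05 was found for 1 member in SOD1-Veh against WT-Veh and 2 in SOD1-Nec against WT-Veh in the microglia-like class, for 1 in the B cell-like class and for 1 in the neutrophil-like class. In the microglia-like class, the largest, 5 members were tested, and all 5 had positive log2 fold changes in SOD1-Veh and in SOD1-Nec against WT-Veh, with medians of 0.62 and 0.52 where all genes had -0.02 and -0.0014. Called genes made up 1.55% of 1609 in SOD1-Veh against WT-Veh, 4.04% in SOD1-Nec against SOD1-Veh and 5.97% in SOD1-Nec against WT-Veh.

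Aldoa in that class had 184 and 153 TMM-scaled CPM for the WT-Veh pair of libraries (15 and 14 UMIs), 229 and 365 for the SOD1-Veh pair (21 and 26) and 361 and 321 for the SOD1-Nec pair (29 and 32). Every SOD1 library lay above both WT-Veh libraries. The share of all genes with such an order was not counted in this or any other class. The log2 difference was 0.79 ± 0.38 (adjusted p = 0.452, edgeR) in SOD1-Veh and 1.01 ± 0.37 (adjusted p = 0.0939) in SOD1-Nec, each against WT-Veh. Muscle RNA was present in this class of SOD1-Veh, with 2 and 5 Acta1 UMIs, and Acta1 was at 0 in that of SOD1-Nec.

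Ldha in microglia-like barcodes had 73.8 and 196 for the WT-Veh pair of libraries, 196 and 210 for the SOD1-Veh pair and 312 and 261 for the SOD1-Nec pair. SOD1-Nec lay above WT-Veh by 1.04 ± 0.41 (adjusted p = 0.121, edgeR), and without WT-Veh 2 this passed the test (1.91, adjusted p = 0.0403), while without WT-Veh 1 it was 0.52 (adjusted p = 0.66). The lone WT-Veh library, with 6 Ldha UMIs, is then taken to vary like the other groups. Eno1 had 123 and 109, 153 and 210, and 174 and 160 in the same order, a log2 difference of 0.62 ± 0.46 in SOD1-Veh (adjusted p = 0.69) and 0.52 ± 0.45 in SOD1-Nec (0.573).

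The other classes held fewer UMIs per enzyme. In B cell-like barcodes Aldoa was the only member tested. It stood at 199 and 0 for the WT-Veh pair of libraries, 221 and 380 for the SOD1-Veh pair and 38.2 and 122 for the SOD1-Nec pair, and the change from SOD1-Veh to SOD1-Nec was -1.78 ± 0.68 (adjusted p = 0.296, edgeR). Genes called were 0.204%, 0.917% and 0.102% in SOD1-Veh against WT-Veh, SOD1-Nec against SOD1-Veh and SOD1-Nec against WT-Veh.

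In neutrophil-like barcodes, with 4 members tested, Gpi1 had 463 and 625 for the WT-Veh pair of libraries, 379 and 559 for the SOD1-Veh pair and 347 and 232 for the SOD1-Nec pair. SOD1-Nec lay below WT-Veh, by -0.92 ± 0.39 (adjusted p = 0.321, edgeR). Ldha in this class had 406 and 382, 284 and 186, and 212 and 244, a difference of -0.78 ± 0.39 (0.372). In the same 3 contrasts 0.126%, 0% and 0.126% of 794 genes were called; for the 0%, 97 genes had an unadjusted p under 0.05 and DESeq2 called 0.

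In monocyte-like barcodes, with 3 members tested, Ldha had 15 and 8 UMIs for the WT-Veh pair of libraries, 5 and 1 for the SOD1-Veh pair and 16 and 13 for the SOD1-Nec pair. The log2 difference was -1.31 ± 0.71 (adjusted p = 0.674, edgeR) from WT-Veh to SOD1-Veh and 1.17 ± 0.69 (0.532) from SOD1-Veh to SOD1-Nec. Without SOD1-Veh 1 these were -2.57 and 2.42, and without SOD1-Veh 2 they were -0.88 and 0.72. Genes called were 1.21%, 1.09% and 0.121%. In erythroid-like barcodes 3 members were tested and 0 called, with 0.294%, 1.84% and 2.72% of 1360 genes called. Of the listed regulators of glycolysis, which include Bpgm, 1 was tested in this class. It was called by edgeR in SOD1-Nec against WT-Veh, and DESeq2 also called 1 gene of that list there. In neither other contrast was it called, though its unadjusted p was under 0.05 in both (edgeR).

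The genes whose levels followed an enzyme most closely were taken over 30 points, the 6 libraries in 5 classes, among 1411 genes. These correlations mix differences between classes with differences between libraries of 1 class, share depth within a library, and are given as a description. Gpi1 was followed by Actr3 of the actin-nucleating Arp2/3 complex (r = 0.91), Plaur, the urokinase receptor (0.90), and Lcp1, the leukocyte actin bundler plastin (0.88). Ldha was followed by Rhog (0.84), Myh9 (0.81) and Actb (0.81), Aldoa by Rab7 (0.86), Ptpre (0.81) and Capns1 (0.81), and Eno1 by Sh3bgrl3 (0.81), Lrrc58 (0.81) and Arpc2 (0.80). Gapdh was followed by Bin2 (0.73), Evi2a (0.71) and Nfe2l2 (0.68). For Pgk1 and Tpi1 the closest genes were Arpc3 (0.63) and Ndufa5 (0.59), and for Pgam1, with UMIs in few points, Lst1 (0.52).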

How the data were processed

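The authors deposited 1 table of UMI counts per library, genes in rows and cell barcodes in columns, with genome build mm9 per the submitters' processing notes. The aligner is not given in the sources used here. Tables held 1508618 to 1767205 UMIs. All barcode columns were read (0 left out), each for its own library, before the barcode limits below were applied.

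Members and gene lists were chosen with earlier results of these data known. Barcodes with at least 200 genes and at most 20% mitochondrial UMIs were kept, and muscle barcodes had at least 3 UMIs over Acta1, Myl1, Tnnc2 and Ckm. Barcodes were clustered (Scanpy 1.11.5, Leiden resolution 1) without the listed metabolic genes, and 19 of 20 clusters were named from fixed markers. Scrublet marked 29 of 3360 barcodes as doublets, which were kept and left out in an alternative.

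UMI counts were summed per library, or per library and class, and tested with edgeR 4.0.16 (R 4.3.3): TMM factors, filterByExpr, a quasi-likelihood fit over all 6 libraries, and Benjamini-Hochberg adjustment over all genes with a threshold of 0.05. SE is the log2 fold change divided by the root of its F. The test was tried on simulated data made from these sums: of 100 genes per fold size it recovered 9% at 2-fold and 63% at 4-fold over all retained barcodes, 16% and 78% without muscle barcodes, and 29% and 77% in the microglia-like class. Class levels were compared on log2(CPM + 10) with exact sign-flip tests (SciPy 1.17.1).

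Named genes were the members, genes of the lists called in a library-level contrast, fixed isozymes and muscle genes, and the 3 genes most correlated with each member among those with a mean of at least 100 CPM, of which some are printed. Alternatives covered DESeq2 1.42.0, other scaling, filters, barcode limits, doublets, classes, single libraries and the replicate number. Promoter windows came from RefSeq.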

Additional observations from a re-analysis of the deposited data

Results flagged for a closer look

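In barcodes outside the retained set, some members were higher in both SOD1-Veh libraries than in both WT-Veh libraries. With under 100 genes this held for 4 of the 6 members that had at least 3 UMIs in every library, and for 49.4% of the 1851 genes that had as many. Above the mitochondrial limit it held for 2 of 7 members and for 15.2% of 2743 genes. In barcodes with under 100 genes the ratio of SOD1-Veh to WT-Veh was 2.10 for Aldoa, 1.90 for Gapdh, 1.72 for Tpi1 and 1.88 for Eno1. Acta1 was present there too, at 64.8 and 257 CPM in SOD1-Veh and at 0 in WT-Veh, and its part in these ratios was not tested. In barcodes above the mitochondrial limit the ratio was 1.21 for Pgk1 and 1.45 for Eno1.

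For 2 enzymes, the libraries of SOD1-Nec and WT-Veh were ordered in opposite ways in 2 classes, without overlap in either. Aldoa was higher in SOD1-Nec in the microglia-like class (log2 fold change 1.01) and slightly lower in the neutrophil-like class (-0.16), 1.17 apart. Ldha was higher in the microglia-like class (1.04) and lower in the neutrophil-like class (-0.78), 1.81 apart. In the monocyte-like class Ldha was slightly lower (-0.15), 1.18 apart from the microglia-like value. These differences between classes were not tested. The microglia-like and neutrophil-like classes share 4 tested members, of which 2 were so ordered, beside 5.23% of 593 genes tested in both. The microglia-like and monocyte-like classes share 3, of which 1 was, beside 5.95% of 689 genes. These pairs of classes are given because they held such members. Every other pair shares 1 to 2 tested members, of which 0 were so ordered, beside 4.49% to 8.3% of genes.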

How the results depend on the processing

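Aldoa passed the test in both SOD1-Veh contrasts over all retained barcodes under each of the 17 alternatives, with adjusted p up to 0.0153 against WT-Veh and up to 0.0487 against SOD1-Nec. The number of members called in SOD1-Veh against WT-Veh went from 1 to 2 with DESeq2 and with the replicate block, and leaving out single libraries gave 1 to 2. In SOD1-Nec against SOD1-Veh it went from 1 to 3 with DESeq2 and without neuron-like clusters, to 2 with the replicate block and to 2 in a fit of only the 2 groups compared, and leaving out single libraries gave 1 to 2. The added members were Gapdh and Ldha. The library whose loss added Gapdh in both contrasts was SOD1-Veh 1, and the one that added Ldha in the second was WT-Veh 2. In the microglia-like class, SOD1-Nec against WT-Veh, the count went from 0 to 1 without WT-Veh 2 (left-out range 0 to 1). With muscle barcodes removed 0 members were called under each of the 21 alternatives.

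The replicate block gave adjusted p = 0.042 for Gapdh against WT-Veh and 0.0482 against SOD1-Nec (edgeR). Over all retained barcodes, the differences of replicate 1 minus replicate 2 correlated across genes at -0.19 (WT-Veh with SOD1-Veh), -0.28 (WT-Veh with SOD1-Nec) and 0.17 (SOD1-Veh with SOD1-Nec). Such correlations cannot tell whether replicate numbers pair the libraries, because the mix of cell classes also differed between libraries. The 3 tables of replicate 1 list 18169 genes each and those of replicate 2 list 18650.

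Values near no difference changed sign with muscle barcodes removed. In SOD1-Veh against WT-Veh Gapdh became -0.011 at 400 genes or more and -0.025 without neuron-like clusters, Ldha 0.029 with a limit of 5 muscle UMIs and 0.022 with the muscle cluster removed instead, and Pgk1 0.13 at up to 40% mitochondrial UMIs. In SOD1-Nec against SOD1-Veh Gapdh became 0.0030 without erythroid-like clusters, Ldha 0.13 at 400 genes or more and Tpi1 -0.10 at up to 40% mitochondrial UMIs. Leaving out single libraries gave 0.046 to 0.68 for Aldoa, -0.10 to 0.31 for Gapdh, -0.30 to 0.22 for Ldha, -0.22 to 0.093 for Pgk1 and -0.20 to 0.036 for Tpi1 against WT-Veh, and -0.82 to -0.20 for Aldoa, -0.47 to 0.23 for Gapdh and -0.32 to 0.21 for Ldha against SOD1-Nec. Over all retained barcodes Gpi1 ran from -0.45 to 0.24 against WT-Veh. The causes were not tested.

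Counts over all genes depended more on the settings, from 22 to 143 where 51 were called, 22 to 56 for 36 and 1 to 26 for 3, and without muscle barcodes from 1 to 178 for 6, 0 to 33 for 0 and 1 to 129 for 6. The 143, 26, 178 and 129 came without WT-Veh 1 and the 33 without SOD1-Nec 2. In the microglia-like class the counts ran from 13 to 33 for 25, 25 to 86 for 65 and 38 to 124 for 96. Pygm lost its call against SOD1-Veh in 4 alternatives (adjusted p up to 0.184). Inside a class, 1 to 5 of the 8 members reached the expression filter, and the others were left out of the main fits.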
